A study of Mus musculus with 11 samples.

Results

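The genes described are 32 genes of glycolysis and pyruvate metabolism, chosen by symbol from the 55486 genes of a count table of mouse blood eosinophils. They cover glucose and lactate transporters, the enzymes from hexokinase to lactate dehydrogenase, and the carriers, enzymes and kinases that let pyruvate into mitochondria. All 32 symbols were found, in 33 rows, because Aldoa has a second row. The second Aldoa row (ENSMUSG00000114515) held 25 counts in 2 of 11 libraries and was not used further. RNA was sequenced by Smart-seq2, a full-length protocol for small RNA amounts, from blood of FVB/N mice whose metastases derived from mammary tumours. Sources used here give neither the tumour model nor the age or sex of the mice. On day 21 of treatment, 7 mice had received cisplatin (a DNA-crosslinking drug) with anti-PD1 and anti-CTLA4 antibodies, and 4 mice had received control antibody, with no cisplatin listed. Cisplatin and the antibodies were given together, so their parts in any difference cannot be told apart. Eosinophils were sorted after red cell lysis on high side scatter, F4/80, CD11b and CD45, with little Ly6g, no CD3 and dead cells left out. These are bulk samples, so fewer cells of a type and less RNA per cell cannot be told apart.

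Glycolysis splits glucose into pyruvate in the cytosol and yields ATP without oxygen. Hexokinase and phosphofructokinase are its main control points, and the bifunctional PFKFB enzymes tune phosphofructokinase through fructose 2,6-bisphosphate. Pyruvate is then reduced to lactate by lactate dehydrogenase, or enters mitochondria through the MPC carrier and becomes acetyl-CoA by pyruvate dehydrogenase, which the PDK kinases switch off. Granulocytes are known to lean on glycolysis for movement, degranulation and the oxidative burst.

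Library totals ran from 3733156 to 8016658 counts. The members took 0.535% to 0.858% of counts in treated and 0.473% to 0.811% in control libraries. Control 3 and control 4 stood apart. Haemoglobin genes took 28.2% and 20.1% of their counts, against 0.165% to 4.42% in the other 9 libraries. In control 3 and control 4, 10775 and 11263 genes were detected, while each other library had at least 12639. Their totals were also the lowest, 3733156 and 3923906 counts, while each other library had at least 5356118. The part of depth in their lower gene detection was not tested. All 10 eosinophil markers were detected in both groups. Ccr3, the eotaxin receptor, ran from 1236 to 4661 CPM (counts relative to the library total, the usual CPM unit) in treated and from 1056 to 4785 CPM in control libraries, and Siglecf from 346 to 878 and from 162 to 1070 CPM. Epx, which encodes eosinophil peroxidase, ran from 0 to 104 CPM in treated and from 1.54 to 81.2 CPM in control libraries.

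The glycolysis and pyruvate genes were without a call, as were all genes tested, so the count of calls does not set them apart. Of the 32 members, 29 passed the filter on low counts and 0 of these 29 passed the edgeR quasi-likelihood test at an adjusted p of 0.05 in either direction, as did 0.0% of 11389 tested genes. Over all genes 777 had an unadjusted p under 0.05. DESeq2 also called 0 of the 29, against 0.615% of the same 11389 genes, and limma-voom with quality weights called 0. At an unadjusted p under 0.05 in edgeR there was 1 member, Pdha1, which was higher, and 0 that were lower, against 6.82% of tested genes in either direction, 3.7% higher and 3.13% lower. In 0 of the 29 members did treated and control libraries separate without overlap, against 0.94% of tested genes, 0.509% with the treated above and 0.43% with the treated below. Fold changes were below 0 in 18 of 29 members, with a median log2 fold change (treated minus control) of -0.18, while over all tested genes 48.2% were below 0 and the median was 0.03. The median of the members was nearer to 0 without treated 3 (-0.06), control 3 (-0.06) or control 4 (-0.03), and without control 3 and control 4 together 15 of 29 were below 0 with a median of -0.06, where that of all genes was 0.10. Scaled to the library total alone, 12 of 29 members were below 0 and their median turned to 0.04, while 33.4% of all genes were below 0 and their median was 0.25. The summed level of the members was 6847 ± 1406 scaled CPM in the 7 treated and 7282 ± 1046 in the 4 control libraries (mean ± SD). Scaled CPM are CPM after TMM scaling, and all single-gene values from here on are scaled CPM unless said otherwise.

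**Figure D1:**
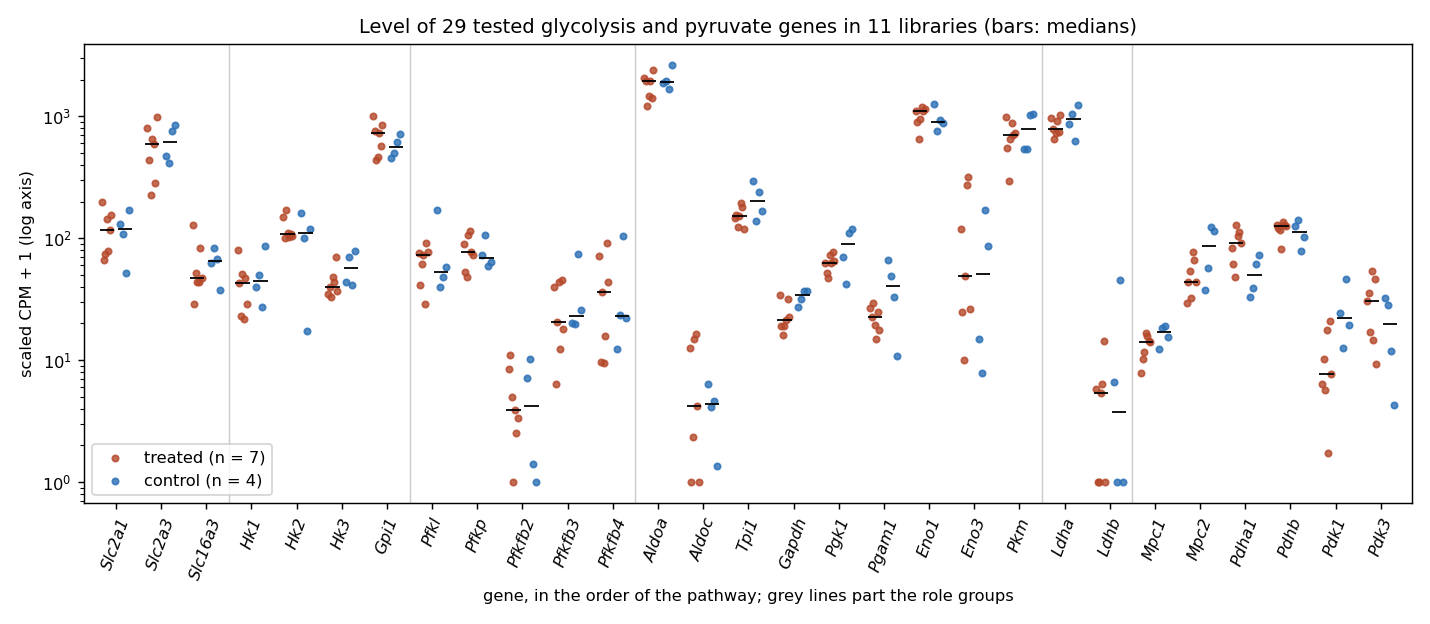
Scaled CPM + 1 (log axis) of the 29 tested genes in pathway order, with 1 point per library (red, 7 treated; blue, 4 control) and black bars at the medians. In every gene the treated and control points overlap, and Eno3 spans 6.79 to 316 scaled CPM.

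The median coefficient of variation of the members was 33% in treated and 42.6% in control libraries, against 48% and 62.4% over all tested genes. The members and all tested genes were not matched for level, and the part of level in this difference was not tested. Ldha (16.6%), Pdhb (14.8%), Pgk1 (17.4%), Tpi1 (18.6%) and Eno1 (19.0%) varied least among treated mice. The most variable of the tested members there were Ldhb (121%), Eno3 (110%), Aldoc (106%), Pfkfb2 (87.9%) and Pfkfb4 (82.7%), of which Ldhb, Aldoc and Pfkfb2 had few counts.

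Levels of different genes were compared as scaled CPM per kb of exon. Aldoa was the most abundant member, at 611 ± 147 CPM per kb in the 7 treated and 699 ± 145 in the 4 control libraries (mean ± SD, as for all later pairs of values). Ldha came next at 251 ± 41.5 and 284 ± 78.2 CPM per kb, then Eno1 at 187 ± 35.6 and 178 ± 40.4. Pkm stood at 137 ± 45.2 and 157 ± 58.0, and Gpi1 at 107 ± 32.2 and 88.2 ± 18.1 CPM per kb. The ranges over libraries overlapped between neighbours in this order from Ldha to Gpi1, but not between Aldoa and Ldha. The places of Ldha and Eno1 depend on the length used. The union of exons has 3310 bases for Ldha and 5379 for Eno1, while their longest transcripts have 1815 and 2027. In all, 17 of the 32 members had a mean of 10 CPM per kb or more.

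Of 4 transporters 3 were tested, with 2 below 0 and a median log2 fold change of -0.04. Of the glucose transporters, Slc2a3, which encodes the high-affinity GLUT3, was above Slc2a1 (GLUT1). Slc2a3 (chromosome 6, 122727809 to 122801640, GRCm38) had a lowest, median and highest level of 223, 590 and 994 in treated libraries, and stood at 469, 410, 757 and 850 in control 1 to control 4. The control values all lie inside the treated range. Its log2 fold change was -0.13 ± 0.37 (SE; edgeR adjusted p = 0.976), and 0.40 without control 3 and control 4. Slc2a1 stood at 117 ± 48.8 and 114 ± 49.1. Per kb of exon, Slc2a3 made up 68.7% ± 9.19 of the pair in treated and 71.8% ± 11.1 in control libraries. Among the lactate exporters, Slc16a3 (MCT4), the form typical of highly glycolytic cells, stood at 59.8 ± 33.6 and 61.6 ± 18.9. Slc16a1 (MCT1) did not pass the filter, with 199 counts in 6 of 11 libraries.

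Of the 4 genes of hexose phosphorylation, all tested, 2 were below 0 and the median was -0.01. All 3 hexokinases, which trap glucose as glucose 6-phosphate, were detected in all 11 libraries. Hk2, the inducible form that docks on mitochondria, stood at 119 ± 27.5 in treated and 98.7 ± 60.1 in control libraries. In control 3 it was 16.4, the lowest of all 11 libraries, while the other 10 ran from 99.0 to 169. Hk3, a form found mainly in blood cells, stood at 43.0 ± 12.8 and 57.7 ± 18.7, with a log2 fold change of -0.42 ± 0.30 (SE; edgeR adjusted p = 0.863). Hk1, the common housekeeping form, stood at 41.1 ± 20.3 and 50.1 ± 25.7. Per kb of exon, Hk2 made up 54.8% ± 8.99 of hexokinase in treated and 39.5% ± 18.7 in control libraries, and Hk3 32.2% ± 8.33 and 44.8% ± 15.7. Control 3 was at one end of both ranges, with 16.3% Hk2 and 65.3% Hk3.

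Gpi1, which turns glucose 6-phosphate into fructose 6-phosphate, had the highest scaled CPM of these 4 genes. In treated libraries Gpi1 (chromosome 7, 34201330 to 34230336) had a lowest, median and highest level of 441, 732 and 1004. The controls stood at 452, 501, 611 and 713. The groups overlap, although 4 treated libraries lie above every control. The log2 fold change was 0.27 ± 0.26 (SE; edgeR adjusted p = 0.920), and 0.56 without control 3 and control 4.

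Of 6 genes of phosphofructokinase and its regulators 5 were tested, with 3 below 0 and a median of -0.02. Phosphofructokinase, the committed step, was mainly made up of the liver and platelet types. Pfkp (chromosome 13, 6579768 to 6648777) had the highest scaled CPM, with a lowest, median and highest level of 47.0, 76.0 and 113 in treated libraries. In control 1 to control 4 it stood at 72.5, 106, 58.1 and 63.3, all within the treated range (log2 fold change 0.07 ± 0.29, SE; edgeR adjusted p = 0.982). Pfkl stood at 63.4 ± 22.2 and 78.1 ± 61.7, where the control SD came from control 1 at 170, against 38.6 to 57.1 in the other 3 controls. Without control 1 the log2 fold change of Pfkl went from -0.31 to 0.42. Per kb of exon Pfkl made up 58.4% ± 14.4 of the enzyme in treated and 61.5% ± 14.5 in control libraries, but over all 11 libraries its mean share was 59.5% by this length and 47.1% by the longest protein-coding transcript. Pfkm, the muscle type, did not pass the filter, with 138 counts in 4 libraries.

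Among the PFKFB enzymes, Pfkfb4 ran from 8.49 to 91.3 in treated libraries (median 35.5), and stood at 11.4, 22.6, 103 and 21.1 in the controls. Its log2 fold change was -0.02 ± 0.72 (SE; edgeR adjusted p = 0.998), and 1.23 without control 3 and control 4. Pfkfb3, the form with the highest kinase to phosphatase ratio, ran from 5.37 to 44.7 in treated libraries, and control 3 was again the highest of all at 73.3. Treated 6 had the highest treated level of both genes, 91.3 for Pfkfb4 and 44.7 for Pfkfb3. Pfkfb2 was low, at 4.05 ± 3.56 and 3.92 ± 4.48, with no counts in treated 4 and control 4.

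**Figure D2:**
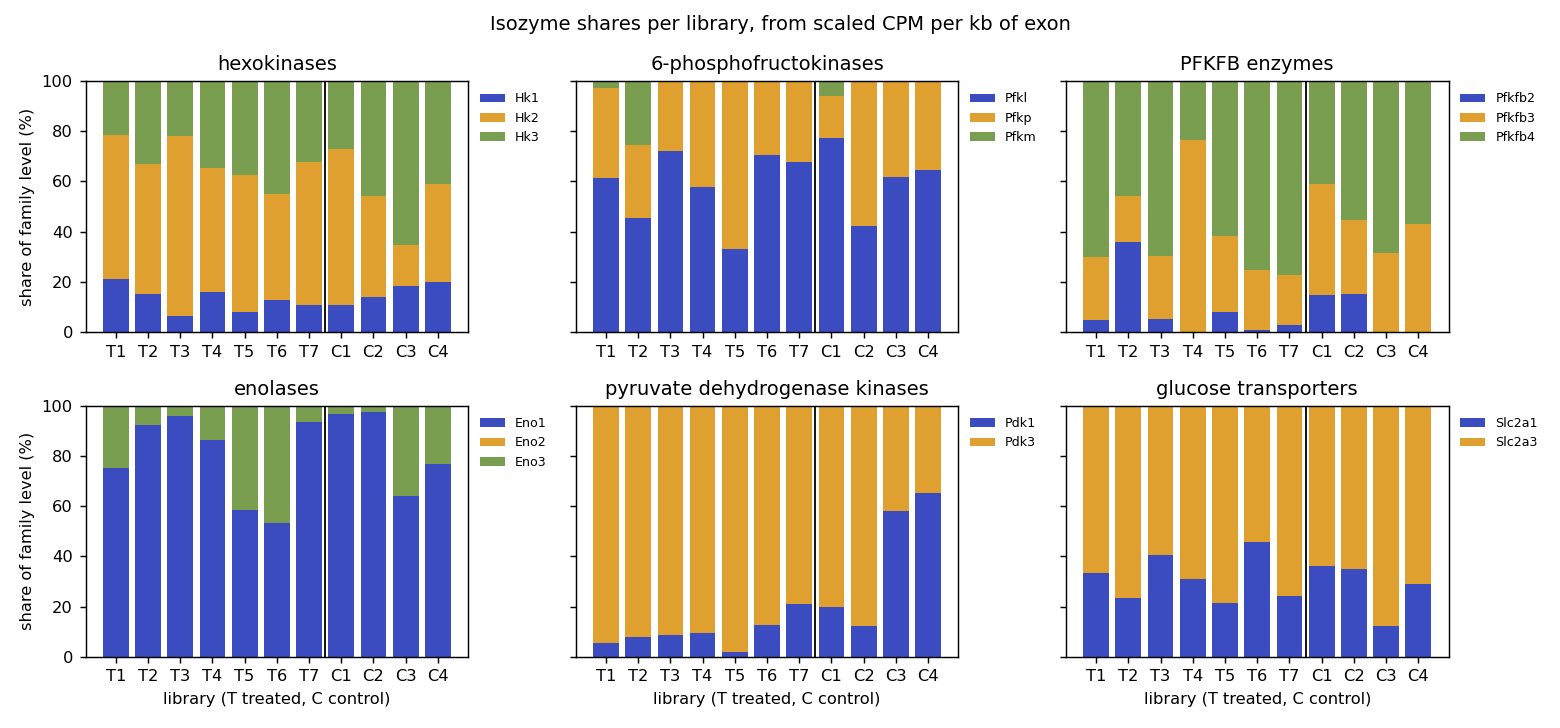
Share of each isozyme in the summed level of its family (percent, from scaled CPM per kb of exon), with 1 bar per library (T1 to T7 treated, C1 to C4 control). Hk3 took more than Hk2 in treated 6, control 2, control 3 and control 4 and less in the other libraries. By this length Eno3 reached 46.9% of enolase in treated 6, and Pdk1 took 58.2% and 65.1% of its pair in control 3 and control 4. The Eno3 share depends on the length used. Eno1 has 5379 exon bases but a longest transcript of 2027, and Eno3 has 1739 and 1564, so transcript length gives Eno3 a smaller share.

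From aldolase to pyruvate, 9 of 10 genes were tested, with 6 below 0 and a median of -0.20. The aldolase was almost wholly Aldoa, the muscle and blood cell form. Aldoa (ENSMUSG00000030695, chromosome 7, 126795234 to 126800751) had a lowest, median and highest level of 1216, 1935 and 2409 in treated libraries. The controls stood at 1867, 1948, 1680 and 2644. The highest library was control 4 and the lowest 3 were treated, but the ranges overlap over most of their length (log2 fold change -0.19 ± 0.23, SE; edgeR adjusted p = 0.940). Aldoc, the brain form, stood at 6.5 ± 6.88 and 3.10 ± 2.06, and made up at most 0.849% of aldolase in any library.

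Tpi1, triosephosphate isomerase, interconverts the 2 products of aldolase. Tpi1 (chromosome 6, 124810586 to 124814296) had a lowest, median and highest level of 117, 152 and 195 in treated libraries and stood at 295, 137, 236 and 166 in the controls. Control 1 and control 3 lie above all treated libraries, and control 2 and control 4 among them. The log2 fold change was -0.46 ± 0.24 (SE; edgeR adjusted p = 0.757), and -0.47 without control 3 and control 4.

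Gapdh, a frequent reference gene, was listed at 22.4 ± 6.92 in treated and 32.3 ± 4.65 in control libraries, or 5.42 and 7.82 CPM per kb. Tpi1, the enzyme before it, stood at 55.2 and 75.8 CPM per kb. Much of the Gapdh transcript exists in copies elsewhere in the genome: of its 50-base words, 82.5% were found in transcripts of 222 other annotated genes, 213 of them pseudogenes. For Eno1 the share was 72.2%, for Pgk1 68.0%, for Pgam1 41.5% and for Pkm 34.4%. It was 30.3% for Pdhb, 29.6% for Mpc1, 27.0% for Ldhb, 25.3% for Gpi1 and 25.1% for Pfkfb2. For Pfkp it was 17.1%, for Pdha1 16.9% and for Ldha 16.7%, while for Eno3, Hk2 and Hk3 it was 0%. The other genes that hold Gapdh words were listed at 16.6 to 48.1 CPM of the library total in sum, led by Peli2. How reads that fit several places were counted is not stated in any source used here. Levels of all members with shared words are uncertain, by an amount that the share of words does not give. Gapdh, Eno1, Pgk1 and Pgam1 have the largest shares. The part of shared sequence in the low Gapdh level was not tested. The first 120 coding bases of 4 members, read from GENCODE M21 transcripts (GRCm38), show the contrast. Capitals mark bases inside a 50-base word that another annotated gene also holds.
Gapdh: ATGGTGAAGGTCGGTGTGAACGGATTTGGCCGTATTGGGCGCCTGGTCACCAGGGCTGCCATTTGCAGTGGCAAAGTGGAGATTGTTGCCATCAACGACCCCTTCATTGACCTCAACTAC
Pgk1: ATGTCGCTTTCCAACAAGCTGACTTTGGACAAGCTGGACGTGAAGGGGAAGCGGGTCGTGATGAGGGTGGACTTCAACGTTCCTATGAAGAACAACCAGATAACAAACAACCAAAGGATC
Eno1: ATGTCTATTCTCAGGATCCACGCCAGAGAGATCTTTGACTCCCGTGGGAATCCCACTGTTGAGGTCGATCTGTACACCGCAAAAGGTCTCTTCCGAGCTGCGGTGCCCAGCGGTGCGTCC
Eno3: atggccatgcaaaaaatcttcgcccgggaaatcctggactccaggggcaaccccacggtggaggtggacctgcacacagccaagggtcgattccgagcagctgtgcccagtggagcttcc
In this stretch, all 120 bases of Gapdh lay in words shared with 102 other genes, those of Pgk1 in words shared with 2, and those of Eno1 in words shared with 3. Eno3 had 0 such bases.

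**Figure D3:**
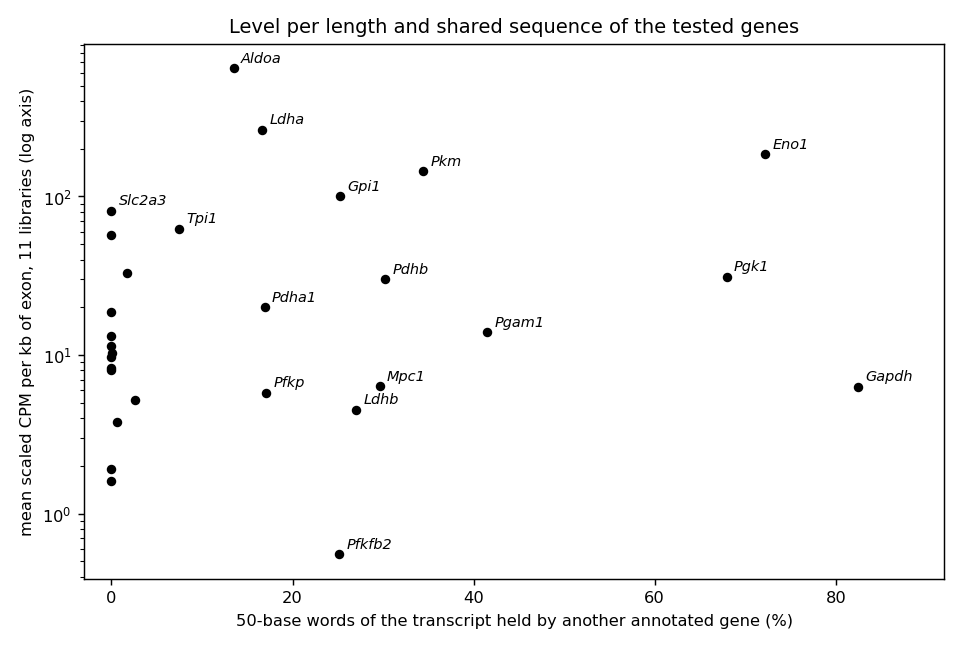
Mean scaled CPM per kb of exon over 11 libraries (log axis) against the share of a transcript's 50-base words held by another annotated gene (percent), with 1 point per tested gene. Gapdh has the highest share, 82.5%, and a low level, while Eno1 combines a share of 72.2% with a level among the highest.

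Pgk1, phosphoglycerate kinase, makes the first ATP of the pathway. Pgk1 (chromosome X, 106187100 to 106203699) had a lowest, median and highest level of 45.9, 62.1 and 76.2 in treated libraries, and stood at 69.0, 41.5, 109 and 119 in the controls. Control 3 and control 4 are above every treated library, and control 2 is below them all. The log2 fold change went from -0.45 ± 0.29 (SE; edgeR adjusted p = 0.830) to 0.19 without control 3 and control 4. Pgam1, phosphoglycerate mutase, showed another split of the controls. Pgam1 (chromosome 19, 41911923 to 41918660) had a lowest, median and highest level of 14.1, 21.5 and 28.3 in treated libraries, and stood at 64.8, 47.7, 32.1 and 9.82 in the controls. Of the 4 controls 3 lie above every treated library, and control 4 lies below them all. Its log2 fold change was -0.87 ± 0.43 (SE; edgeR adjusted p = 0.734), and -1.37 without control 3 and control 4 (adjusted p = 0.241, edgeR).

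Enolase makes phosphoenolpyruvate, and has 3 isozymes. Eno1, the ubiquitous form, stood at 1008 ± 192 and 958 ± 217 (log2 fold change 0.07 ± 0.22, SE; edgeR adjusted p = 0.976). Eno2, the neuronal form, had 3 counts in 2 libraries. Eno3, known as the muscle form, ran from 6.79 to 316 among libraries. In treated 1 to treated 7 Eno3 (chromosome 11, 70657202 to 70662513) stood at 118, 24.0, 9.13, 48.5, 275, 316 and 25.4, and in control 1 to control 4 at 14.0, 6.79, 169 and 86.2. High and low libraries occur in both groups. Its log2 fold change was 0.77 ± 1.05 (SE; edgeR adjusted p = 0.941), and 3.53 without control 3 and control 4 (adjusted p = 0.581, edgeR). The libraries highest in Eno3, treated 6, treated 5 and control 3, were also the 3 with the highest summed level of 11 monocyte and macrophage markers (14183, 7421 and 11248 CPM of the library total), and the lowest in both was control 2 (921 CPM), but the order differed elsewhere: treated 3 combined a low Eno3 with 6507 CPM, and control 4 an Eno3 of 86.2 with 2423 CPM. The part of these cells in the Eno3 level was not tested. Pkm, pyruvate kinase, stood at 685 ± 226 and 786 ± 290, and its log2 fold change went from -0.20 to 0.39 without control 3 (1027) and control 4 (1047).

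**Figure D4:**
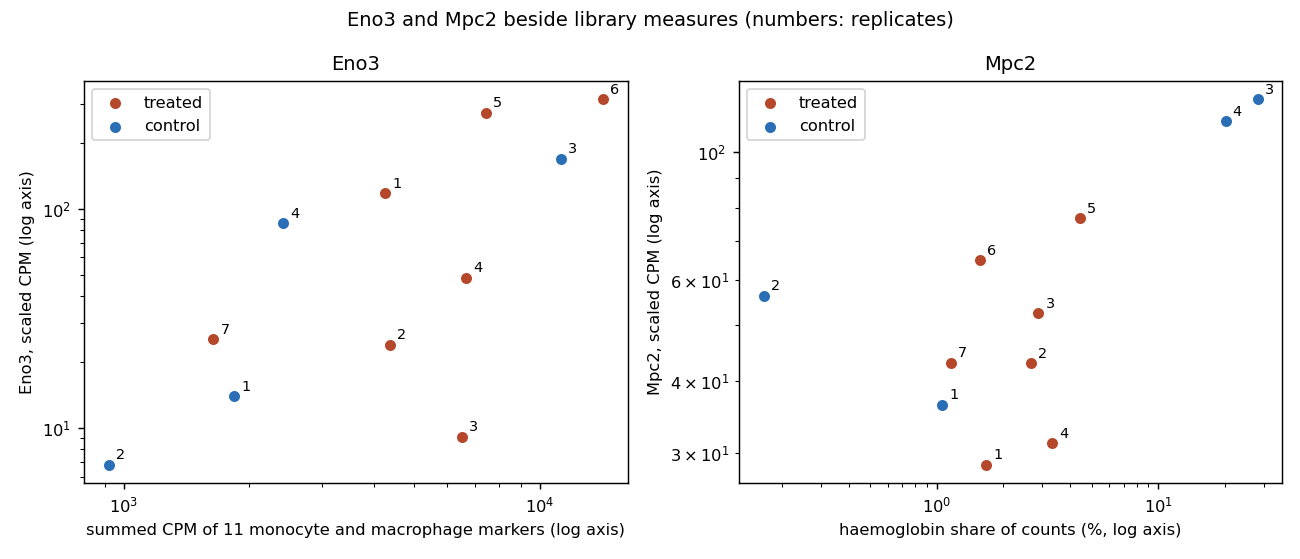
Left, Eno3 against the summed level of 11 monocyte and macrophage markers; right, Mpc2 against the haemoglobin share of counts (scaled CPM, CPM of the library total and percent; all axes log; 1 numbered point per library, red treated, blue control). Treated 5, treated 6 and control 3 are highest on both axes at left, and control 3 and control 4 are highest on both at right.

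Both genes of lactate dehydrogenase were below 0, with a median of -0.91. Lactate dehydrogenase was mainly of the LDHA subunit, which favours lactate formation. Ldha (chromosome 7, 46841475 to 46855627) had a lowest, median and highest level of 651, 790 and 1018 in treated libraries. Its controls stood at 861, 1040, 629 and 1236. The highest and the lowest library are both controls (log2 fold change -0.18 ± 0.22, SE; edgeR adjusted p = 0.940). Ldhb, of the heart-type subunit, had 348 counts in 6 of 11 libraries and made up 1.03% ± 1.31 of the pair per kb in treated and 3.58% ± 6.30 in control libraries, and Ldha made up 87.0% of it in control 3. In control 3 Ldhb stood at 44.5, against 13.4 or less in the other 10 libraries, and without control 3 its log2 fold change went from -1.64 to 1.04.

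At the entry of pyruvate into mitochondria, 6 of 6 genes were tested, with 3 below 0 and a median of -0.12. Pdha1, the catalytic E1 alpha subunit of pyruvate dehydrogenase, had the smallest p-value of the members. Pdha1 (chromosome X, 160122209 to 160138413) had a lowest, median and highest level of 47.2, 90.2 and 128 in treated libraries, and stood at 32, 37.8, 60.1 and 71.6 in the controls. Of the 7 treated libraries 5 lie above every control, and treated 2 and treated 3 lie among the controls. Its log2 fold change was 0.82 ± 0.32 (SE; edgeR adjusted p = 0.634), and 1.39 without control 3 and control 4 (adjusted p = 0.290, edgeR). Of the exon bases of Pdha1, 16.1% overlap Map3k15 on the other strand. The strand setting of the counts is not stated, and how many reads there came from Map3k15 is not known. Exon overlap with other genes, on either strand, was 23.05% for Mpc1, 19.5% for Pfkfb2, 15.3% for Pkm and 11.5% for Gpi1. It was lower in the other tested members. Pdhb, the E1 beta subunit that pairs with Pdha1, is encoded by a separate gene. Pdhb (chromosome 14, 8165996 to 8173025) had a lowest, median and highest level of 81.4, 125 and 134 in treated libraries and stood at 124, 140, 76.9 and 101 in the controls (log2 fold change 0.10 ± 0.22, SE; edgeR adjusted p = 0.965). Both ends of the range are controls.

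The PDK kinases phosphorylate and switch off pyruvate dehydrogenase. Pdk1 (chromosome 2, 71873224 to 71903858), a known target of HIF-1, had a lowest, median and highest level of 0.725, 6.72 and 19.9 in treated libraries, and stood at 23.6, 11.6, 45.7 and 18.5 in the controls. Control 1 and control 3 lie above every treated library. The log2 fold change was -1.45 ± 0.70 (SE; edgeR adjusted p = 0.731), and -0.92 without control 3 and control 4. Pdk3 stood at 28.8 ± 17 and 18.1 ± 13.3, with the lowest value, 3.27, in control 4. Per kb, Pdk1 made up 9.61% ± 6.11 of the pair in treated libraries (SD, n = 7), and 19.9%, 12.3%, 58.2% and 65.1% in control 1 to control 4. The shares of control 1 and control 2 thus lie within the treated range of 1.72% to 21.2%, and those of control 3 and control 4 far above it.

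The mitochondrial pyruvate carrier is built of MPC1 and MPC2. Mpc2 (chromosome 1, 165460637 to 165481214) had a lowest, median and highest level of 28.6, 43.1 and 76.7 in treated libraries, and stood at 36.4, 56.3, 123 and 113 in the controls. Control 3 and control 4 are above every other library, and control 1 and control 2 lie inside the treated range. The log2 fold change went from -0.76 ± 0.37 (SE; edgeR adjusted p = 0.731) to 0.11 without these 2 controls, which are also the 2 libraries with the highest haemoglobin share. The part of red cell RNA in this was not tested. Mpc1 stood at 12 ± 3.24 and 15.3 ± 3.0, with a log2 fold change of -0.35 ± 0.48 (SE; edgeR adjusted p = 0.940).

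**Figure D5:**
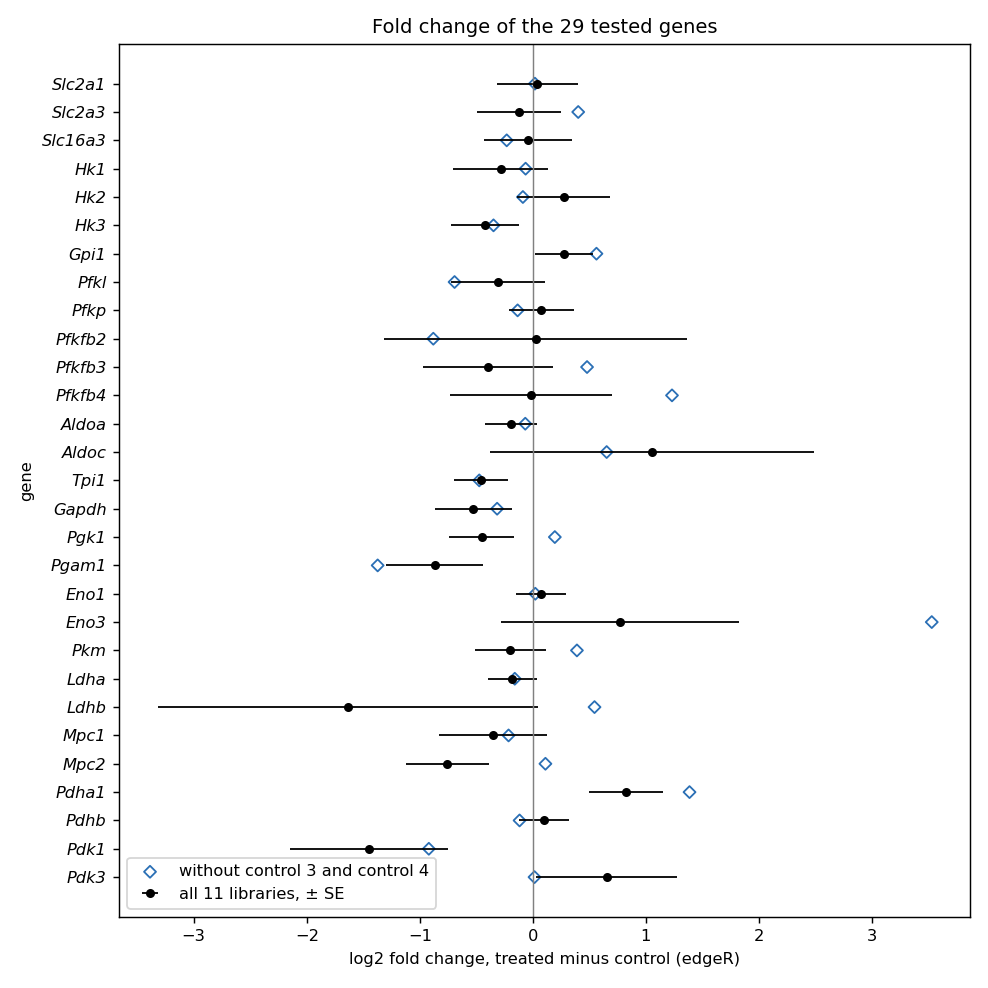
Log2 fold change (treated minus control, edgeR) of the 29 tested genes, as black points with bars of 1 SE over all 11 libraries and as blue open diamonds without control 3 and control 4. Slc2a3, Hk2, Pfkp, Pfkfb2, Pfkfb3, Pfkfb4, Pgk1, Pkm, Ldhb, Mpc2 and Pdhb change side without these 2 controls, and Eno3 goes from 0.77 to 3.53.

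Of 37 further glycolysis and pyruvate genes, 22 were tested and 0 passed edgeR or DESeq2 in either direction (10 below 0, median log2 fold change 0.03). At an unadjusted p under 0.05 in edgeR 3 of the 22 were lower, Bpgm, Bsg and Pgm2, and 0 higher. Over all tested genes 3.13% were lower and 3.7% higher at this p. Bpgm, bisphosphoglycerate mutase, which makes the 2,3-bisphosphoglycerate of red cells, had the highest mean scaled CPM of the 37 genes. In the controls it stood at 166, 44.1, 8369 and 5728, and in treated libraries at 586 ± 371 (SD, n = 7). Control 3 and control 4 are the libraries rich in haemoglobin, and without them the log2 fold change of Bpgm went from -2.61 to 2.51. Bsg (basigin, the partner chain of the lactate transporters) stood at 188 ± 31.2 and 294 ± 108, and its log2 fold change went from -0.64 to -0.15 without the same controls. Pgm2, a phosphoglucomutase, stood at 43.5 ± 6.21 and 69.3 ± 34.7.

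Neighbouring pathways were likewise without a call by edgeR or DESeq2. All 10 pentose phosphate genes were tested, with 4 below 0, a median of 0.02 and 0 at an unadjusted p under 0.05. Taldo1 (transaldolase), at 2815 ± 919 in treated and 3555 ± 1071 in control libraries, had the highest mean of them, and Tkt (transketolase) stood at 347 ± 97.1 and 342 ± 75.3. Of 14 glycogen genes 11 were tested, with 5 below 0, a median of 0.01 and 0 at an unadjusted p under 0.05. Pygl, the glycogen phosphorylase that frees glucose 1-phosphate, stood at 845 ± 326 and 869 ± 151, and Gyg (glycogenin) at 129 ± 58.5 and 148 ± 86.5. All 18 genes of the tricarboxylic acid cycle were tested, with 9 below 0, a median of 0.05 and 0 at an unadjusted p under 0.05. Mdh2 (malate dehydrogenase) stood at 905 ± 353 and 942 ± 221, and Sdhb, a subunit of succinate dehydrogenase, at 340 ± 76.9 and 341 ± 60.6.

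Markers of other blood cells varied beside these genes. Summed levels, in CPM of the library total, ran from 5815 to 14047 in treated and from 6824 to 12842 in control libraries for 10 neutrophil markers, of which Retnlg took most (5416 to 13380 and 4929 to 12050), while the defining Ly6g ran from 0 to 15.2 and from 0 to 13.9. Of the other neutrophil markers, 4 were detected in every library: Mmp9 (322 to 799 and 300.0 to 747), Ngp (40.6 to 626 and 15.8 to 876), S100a8 (8.12 to 386 and 3.06 to 986) and S100a9 (3.53 to 223 and 1.78 to 460). The 11 monocyte and macrophage markers ran from 1642 to 14183 in treated and from 921 to 11248 in control libraries. For the 9 of 10 erythroid markers found in the table they ran from 11929 to 45571 and from 1662 to 288002, and for the 10 eosinophil markers from 2780 to 8952 and from 3879 to 8744. For 11 platelet markers the ranges were 849 to 3391 and 176 to 7977, with the highest values in control 3 and control 4. For 10 B cell markers they were 1410 to 6639 and 539 to 3256, and for 10 T and NK cell markers 26.3 to 78.6 and 18.6 to 87.3, with Cd3e and Cd8a at 0 in all 4 controls. The part of these cells in the levels of the glycolysis genes was not tested.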

How the data were processed

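For the 11 libraries the authors deposited 1 table of raw, whole-number counts, by Ensembl gene. The submitters' processing notes name GRCm38, SAMtools 1.15.1, HISAT2 2.10 and bcl2fastq 2.20.0.422. Which counter, strand setting and annotation release made the counts is not given in the sources used here. A row that names no gene held 0 counts and was left out. The test was that of edgeR 4.0.16 under R 4.3.3 (quasi-likelihood, robust dispersions, TMM, filterByExpr, Benjamini-Hochberg over 11389 genes, threshold 0.05). The SE is the fold change divided by the square root of F. Printed fold changes are treated minus control. DESeq2 1.42.0 and limma 3.58.1 (voom) were alternatives, beside those in the closing section. Exon lengths (union of exons), transcript sequences and overlaps came from GENCODE M21. A word counts as shared when a transcript of another gene, on either strand, holds the same 50 bases. The word length was a choice, since the read length is not given in the sources used here.

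The members, gene lists and tests were chosen with earlier results of these data known. Each control value, with the lowest, median and highest of the 7 treated values, was given for the most abundant tested member of each of 6 roles, the 6 members with the smallest p-values, and any member called or without overlap, of which there were none. Of other lists, the 2 genes with the highest mean scaled CPM were named. The values by library of Eno3, Pfkfb4 and Bpgm, and those of Pgm2, fell outside this rule and were chosen after their values were seen. Each library is 1 mouse, and no 2 libraries were duplicates (chi-square per gene 55.2 or more). Sample identifiers in the table header begin with 19 for treated and 20 for control libraries, and their letters are VIS in 6 of 7 treated libraries and KDV in treated 1 and all 4 controls, so a batch marked by these digits, or largely by these letters, and the treatment cannot be told apart. The test was checked on simulated counts, where most genes given the smallest change were not called. The lack of a call is thus no sign that a gene is unchanged. Reads had no molecular identifiers.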

Additional observations from a re-analysis of the deposited data

Results flagged for a closer look

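The 29 tested genes each gave a treated and a control group, 58 groups in all. In each group the highest or lowest library was set against the next one by Dixon's ratio at the 95% level. In 7 of the 58 groups 1 library lay far from the rest, and some libraries did so in more than 1 gene. That level holds for normally distributed values, while scaled CPM were used without a log and all genes share the same 11 libraries. How many groups chance alone would mark is therefore not known. Control 3 lay far above the other controls in Pfkfb3 (73.3 scaled CPM, next 24.7), Pfkfb4 (103, next 22.6) and Ldhb (44.5, next 5.58), and it is the library with the highest haemoglobin share, 28.2%. Control 1 lay far above in Pfkl (170, next 57.1). Treated 6, the library with the highest summed level of monocyte and macrophage markers, lay far above in Hk3 (69.5, next 47.3) and Ldhb (13.4, next 5.36). Treated 4 lay far below in Pdhb (81.4, next 115).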

How the results depend on the processing

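Not 1 of the 29 tested members passed in any setting run. DESeq2's own test called 57 genes higher and 22 lower among all it tested, against 0 and 0 in edgeR. Leaving out 1 library at a time, 17 to 20 members were below 0, with a median from -0.229 to -0.0272 and 0 genes called. With the letters of the sample identifiers as a covariate, chosen after seeing the data, a fit in which the contrast rests on treated 1 as the 1 treated library with the controls' letters, 9 members were below 0 and the median was 0.214. Scaling to the library total alone moved the median over all genes from 0.03 to 0.25 and the share below 0 from 48.2% to 33.4%. Of the values for single members, 49 reversed and 383 did not in these settings, and 30 and 289 with 1 library left out. The causes were not tested.

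Reversed log2 fold changes were, with the library total alone, Aldoa 0.0436, Ldha 0.0388, Pfkfb2 -0.0422, Pfkfb3 0.0373, Pfkfb4 0.451, Pkm 0.135, Slc16a3 0.138 and Slc2a3 0.184. With limma-voom they were Aldoc -0.756, Ldhb 0.138, Pfkfb4 0.653, Pfkp -0.0669 and Slc2a1 -0.0687, and with no filter Pfkfb4 0.0269. Without control 3 and control 4 they were Hk2 -0.0881, Ldhb 0.545, Mpc2 0.111, Pdhb -0.118, Pfkfb2 -0.881, Pfkfb3 0.479, Pfkfb4 1.23, Pfkp -0.135, Pgk1 0.194, Pkm 0.39 and Slc2a3 0.401. With detected genes as a covariate they were Hk2 -0.198, Pdhb -0.0475, Pfkfb2 -0.452, Pfkfb3 0.00264, Pfkfb4 0.476, Pkm 0.274, Slc2a1 -0.141 and Slc2a3 0.338, and with the haemoglobin share Pfkfb4 0.306. With a length and GC offset they were Pfkfb2 -0.0198, Pfkp -0.116 and Slc2a1 -0.0731. With the identifier letters they were Aldoa 0.0218, Gapdh 0.0516, Hk1 0.653, Ldha 0.0471, Pfkfb3 0.211, Pfkfb4 0.847, Pkm 0.324, Slc16a3 1.03 and Slc2a3 0.379. With 1 library left out, the values ran from -0.387 to 0.856 for Pfkfb2, -0.172 to 0.298 for Slc2a1, -0.4 to 1.12 for Pfkfb4, -0.312 to 0.133 for Slc16a3, -0.318 to 0.0781 for Slc2a3, -0.0323 to 0.292 for Pfkp, -0.529 to 0.421 for Pfkl, -0.0182 to 0.241 for Eno1, -0.0589 to 0.604 for Hk2, -2.36 to 1.04 for Ldhb, -0.00989 to 0.241 for Pdhb, -0.588 to 0.338 for Pfkfb3 and -0.49 to 0.122 for Hk1.

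Replicate numbers did not pair the mice: same-numbered libraries had correlations of -0.0315, 0.0212, -0.1156 and -0.0417, and each control correlated best with another number. With the replicate block, 0 genes were called, and Aldoc (-0.123), Eno1 (-0.0914) and Pfkp (-0.0785) reversed. With the longest protein-coding transcript as length, also chosen after seeing the data, the mean share of Slc2a1 was 20.5% (30.2% with the union of exons) and that of Mpc1 20.6% (45.4%). Ldhb, Aldoc and Pfkfb2 rest on 348, 421 and 312 counts over all libraries.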

Other observations

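Of 18 regulators of glycolysis genes 15 were tested, and edgeR and DESeq2 called 0 of them (8 below 0, median log2 fold change -0.02). Txnip, which restrains glucose uptake, stood at 451 ± 150 scaled CPM in the 7 treated and 642 ± 172 in the 4 control libraries (mean ± SD), and Hif1a at 111 ± 42.7 and 119 ± 32.7. At an unadjusted p under 0.05 in edgeR 2 of the 15 were higher, Mlxip and Myc, and 0 lower. Over all tested genes 3.7% were higher and 3.13% lower at this p. Mlxip and Myc were named for their p after their values were seen, and in both the groups overlap. Mlxip was 33.1 in treated 7 and 56.9 in control 3, and Myc was 15.9 in treated 5 and 52.7 in control 4. Mlxip (MondoA, a glucose sensor) stood at 76.0 ± 25.6 and 36.5 ± 14.9, with an edgeR log2 fold change of 1.06 ± 0.36 (SE; adjusted p = 0.626) and 1.23 without control 3 and control 4. Myc stood at 74.3 ± 47.3 and 29.5 ± 18.7, with an edgeR log2 fold change of 1.33 ± 0.56 (SE; adjusted p = 0.671) and 1.53 without these controls.

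Of 15 hypoxia-inducible genes outside glycolysis 11 were tested, with 0 called by edgeR or DESeq2 (7 below 0, median -0.31). At an unadjusted p under 0.05 in edgeR 2 of the 11 were lower, Bnip3l and Ndrg1, and 0 higher, against 3.13% and 3.7% of all tested genes. Bhlhe40 stood at 468 ± 135 and 488 ± 313. Bnip3l, a mitophagy receptor also used in red cell maturation, stood at 332 ± 94.7 and 1027 ± 997, and its log2 fold change went from -1.63 to 0.94 without control 3 and control 4, the libraries rich in haemoglobin. Ndrg1, named after its values were seen, went from -2.30 to 0.87.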
